A study of Mus musculus with 7 samples.

Results

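MHC class I molecules hold peptides from proteins made inside a cell on its surface, where CD8 T cells and NK cells read them. Each is a heavy chain, encoded in the mouse H2 complex, paired with the small chain beta-2-microglobulin, the product of B2m, without which most heavy chains do not reach the surface. Nlrc5 is the transactivator of these genes: it does not bind DNA by itself but acts with the RFX and NF-Y factors and with CRE-binding factors at a shared promoter element. The genes described here are 8 heavy chains (H2-K1, H2-D1, H2-Q4, H2-Q6, H2-Q7, H2-T22, H2-T23 and H2-M3), B2m and Nlrc5. They were found by the first gene symbol of each row in the deposited expression table, which gave 10 of 24537 genes. All 10 passed the filter on low values (at least 1 FPKM in at least 2 libraries) that kept 13028 genes for testing. FPKM is a level per transcript length and per sequencing depth, so levels can be set side by side between genes. A row for H2-K2 carries H2-K1 only as an alias and was kept apart.

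The libraries were made from microglia, the macrophages that live in brain tissue, sorted as CD45-intermediate, CX3CR1-positive cells from C57BL/6 mice bearing the 005 glioma, a mouse glioblastoma model, at day 35. All mice carried the tumour. One group had received control IgG (n = 2), one was labelled as treated with anti-CTLA4, a checkpoint antibody (n = 2), and one had received anti-CTLA4 together with CD4 depletion (n = 3). No source used here says that libraries of a group came from separate animals, so p-values here cover only how these libraries varied, and that variation may be technical.

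Some facts of the libraries bear on every result. Depths implied by the steps of low values were 49900000 to 61900000 reads in genes, and 11348 to 12401 genes reached 1 FPKM. Sheet numbers 29 and 30 stand on the 2 anti-CTLA4 columns, and the header's command assigns those numbers to interferon-gamma receptor knockout libraries, whereas the descriptions give 10 and 11. They are therefore called the libraries labelled anti-CTLA4, and any direction against them depends on that label. Their Ifngr1 levels, for the receptor chain that binds interferon-gamma, were 204 and 271 FPKM against 107 to 143 FPKM elsewhere, but 1 value per gene would not show a partial deletion. The Y-linked gene Eif2s3y was at 4.34 to 6.86 FPKM in the CD4 depletion libraries and at 0.335 to 1.06 FPKM in the other 4. Ddx3y and Uty, also Y-linked, were separated in the same direction. Kdm5d, another Y-linked gene, overlapped, at 0.663 to 1.88 FPKM against 0 to 0.746 FPKM. The X-linked Xist was at 2.16 to 6.08 FPKM over all 7 libraries. The Eif2s3y difference runs with CD4 depletion in both comparisons of that group, and its cause was not tested. The defining microglial markers P2ry12, Tmem119 and Cx3cr1 were present in every library, P2ry12 at 147 to 1088 FPKM.

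Promoter sequences are shown first and were searched for letters that match interferon response, NF-kB-like, CRE-like and NF-Y motifs. Not every promoter held each of them. RefSeq (build GRCm38.p6, which is mm10) held a promoter entry for 9 of the 10 genes; Nlrc5 had none. The stretches below run from 200 to 41 bases before the annotated start, 5' to 3' on the gene's own strand. Capitals mark matches to an interferon response motif (GAANNGAAA or GAAANNGAAA) or an NF-kB-like motif (GGGNNTTNCC), searched on both strands. H2-D1 and H2-K1 are the classical heavy chains, B2m the shared light chain, H2-T23 the only member past the threshold in the libraries labelled anti-CTLA4 against IgG, and H2-T22 the only member not past it with CD4 depletion against those libraries.
H2-D1, chr17:35262894-35263053, plus strand: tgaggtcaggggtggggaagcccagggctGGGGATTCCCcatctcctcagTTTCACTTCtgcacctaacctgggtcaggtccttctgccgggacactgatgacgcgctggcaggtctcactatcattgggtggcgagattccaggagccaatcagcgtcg
H2-K1, chr17:34000374-34000533, minus strand: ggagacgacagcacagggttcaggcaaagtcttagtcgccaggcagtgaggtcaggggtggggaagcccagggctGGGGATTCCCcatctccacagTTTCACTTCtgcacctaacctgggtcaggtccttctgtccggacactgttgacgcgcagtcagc
B2m, chr2:122147487-122147646, plus strand: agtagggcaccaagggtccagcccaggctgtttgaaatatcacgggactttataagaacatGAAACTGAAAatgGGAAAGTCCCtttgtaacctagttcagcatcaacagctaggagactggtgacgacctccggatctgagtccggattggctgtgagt
H2-T23, chr17:36032742-36032901, minus strand: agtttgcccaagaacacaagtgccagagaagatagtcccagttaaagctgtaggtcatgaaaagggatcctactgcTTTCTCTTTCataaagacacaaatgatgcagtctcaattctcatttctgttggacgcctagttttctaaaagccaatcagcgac
H2-T22, chr17:36042783-36042942, minus strand: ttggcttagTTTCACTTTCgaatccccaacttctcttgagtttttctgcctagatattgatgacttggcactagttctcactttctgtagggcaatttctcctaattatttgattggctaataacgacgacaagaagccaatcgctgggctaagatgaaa

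In the whole 250 bases before the start, the short interferon form GAANNGAAA was found in 6 of the 9 promoters (H2-K1, H2-D1, H2-Q4, H2-Q6, H2-Q7 and H2-M3) and in 6.34% of all 27025 promoters of the same length. The long form GAAANNGAAA, added after these sequences had been seen, was found in the other 3 (H2-T22, H2-T23 and B2m) and in 3.04% of all promoters. One or the other form was thus in 9 of 9 and in 8.91% of all. The choice of the long form from these sequences made this so, and the 2 shares are no test of enrichment. All 6 short-form matches read the same letters, TTTCACTTC, so these promoters are not independent observations. The NF-kB-like motif was in 6 of 9 (H2-K1, H2-D1, H2-Q4, H2-Q6, H2-Q7 and B2m), against 4.0% of all, and H2-Q4 had 2 matches that overlap each other. In H2-D1 it lay at -171 to -162 and the interferon match at -150 to -142, counted from the start. In H2-K1 the same pair lay at -125 to -116 and -104 to -96. In B2m the order was turned around, with the interferon form at -139 to -130 upstream of the NF-kB-like match at -126 to -117.

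Elements of the CRE-binding and NF-Y partners of Nlrc5 were also searched on both strands, and no element of RFX was. The CRE-like half-site TGACG was in 7 of 9 promoters, against 17.9% of all. The inverted CCAAT box ATTGG, the NF-Y element, was in 9 of 9 on either strand, against 34.5% of all. In H2-T23 the only such match was in the other orientation, CCAAT at -52 to -48. H2-T23 and H2-Q6 had no TGACG in this window. H2-T23, H2-T22 and H2-M3 had no NF-kB-like match. A match is a description of the letters and not a measured binding site.

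**Figure D1:**
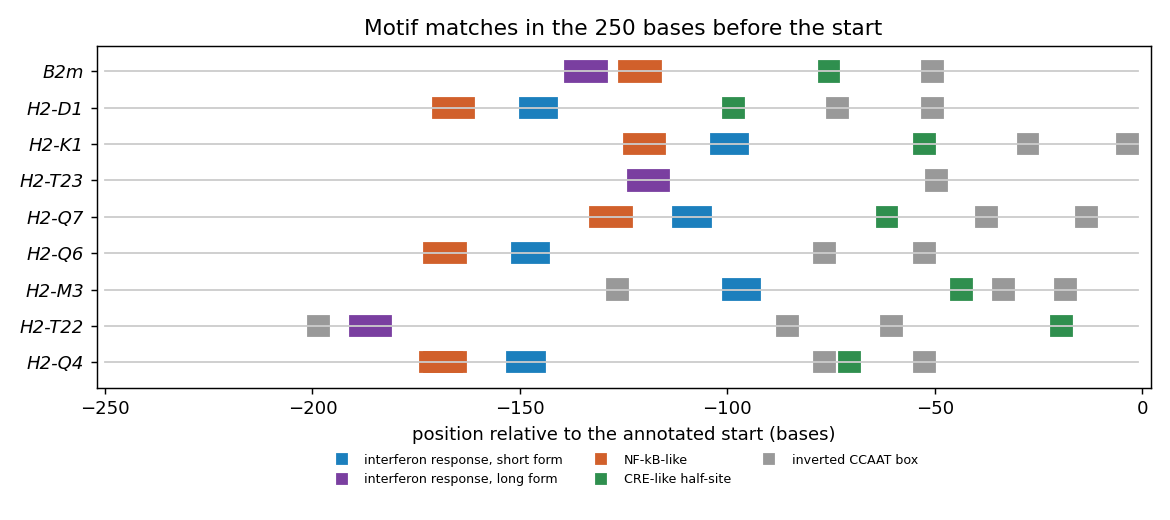
Motif matches along the 250 bases before the annotated start of the 9 class I genes with a promoter entry. The horizontal axis is the position in bases relative to the start, each row is a gene and each coloured block a match on either strand. The NF-kB-like block sits upstream of the interferon block in 5 heavy chains and downstream of it in B2m.

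B2m, on chromosome 2 from 122147687 to 122153082 (mm10), was the most abundant member in every library. Its level was 2746 and 2462 FPKM in the IgG libraries, 4693 and 4097 in the libraries labelled anti-CTLA4, and 1355, 1797 and 1703 with CD4 depletion. The 3 groups did not overlap, with means of 2604 ± 201 (SD, n = 2), 4395 ± 422 (SD, n = 2) and 1618 ± 233 FPKM (SD, n = 3).

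The classical heavy chains H2-K1 and H2-D1, which present peptides to CD8 T cells, came next. H2-D1 (chromosome 17, 35263094 to 35267497) was at 1445 and 1358 FPKM with IgG, 2529 and 1973 in the libraries labelled anti-CTLA4, and 609, 936 and 780.1 with CD4 depletion. H2-K1 (chromosome 17, 33996012 to 34000333) was at 867 and 748 FPKM with IgG, 1269 and 1103 in the libraries labelled anti-CTLA4, and 266, 544 and 398 with CD4 depletion. Both followed the order of B2m, with no overlap between groups.

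The non-classical heavy chains were lower and more varied. H2-T23 encodes Qa-1, which shows a leader peptide of other class I chains to the receptor pair CD94 and NKG2A on NK cells and T cells. It was at 161 and 171 FPKM with IgG, 398 and 367 in the libraries labelled anti-CTLA4, and 76.9, 108 and 83.8 with CD4 depletion, and the 2 libraries of each pair lay close together. H2-Q7 and H2-Q6 are genes of the Qa-2 family. H2-Q7 was at 137 and 102 FPKM with IgG, 176 and 134 in the libraries labelled anti-CTLA4, and 16.3, 74.3 and 35.9 with CD4 depletion. H2-Q6 was at 84.8 and 55.1 FPKM with IgG, 102 and 112 in the libraries labelled anti-CTLA4, and 11.7, 38.0 and 18.9 with CD4 depletion. The CD4 depletion libraries lay below the other groups for both genes but were spread widely, with a coefficient of variation of 70.0% for H2-Q7 and 59.7% for H2-Q6, against 14.4% for B2m.

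H2-M3 presents N-formylated peptides, such as those that start bacterial and mitochondrial proteins. It was at 59.3 and 46.9 FPKM with IgG, 73.7 and 90.2 in the libraries labelled anti-CTLA4, and 17.8, 32.4 and 22.4 with CD4 depletion, again with no overlap. H2-T22 binds no peptide and is a ligand of some gamma-delta T cell receptors. It was the exception: its levels were 47.8 and 38.6 FPKM with IgG, 28.5 and 22.3 in the libraries labelled anti-CTLA4, and 11.1, 30.8 and 17.2 with CD4 depletion. Here IgG stood highest, and the libraries labelled anti-CTLA4 overlapped those with CD4 depletion. H2-Q4, another chain of the Q region, was at 13.5 and 11.2 FPKM with IgG, 12.98 and 11.5 in the libraries labelled anti-CTLA4, and 2.57, 8.43 and 4.43 with CD4 depletion.

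Nlrc5 (chromosome 8, 94472763 to 94527272) had the lowest mean of the 10 genes in each group. Its level was 6.23 and 7.50 FPKM with IgG, 7.51 and 8.94 in the libraries labelled anti-CTLA4, and 1.99, 4.99 and 2.22 with CD4 depletion. At the implied depths this was 1438 to 5561 reads per library, so counting error was small beside the spread between libraries. CD4 depletion stood below the other 2 groups without overlap, while IgG and the libraries labelled anti-CTLA4 were separated by less than 0.1 FPKM at their nearest.

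**Figure D2:**
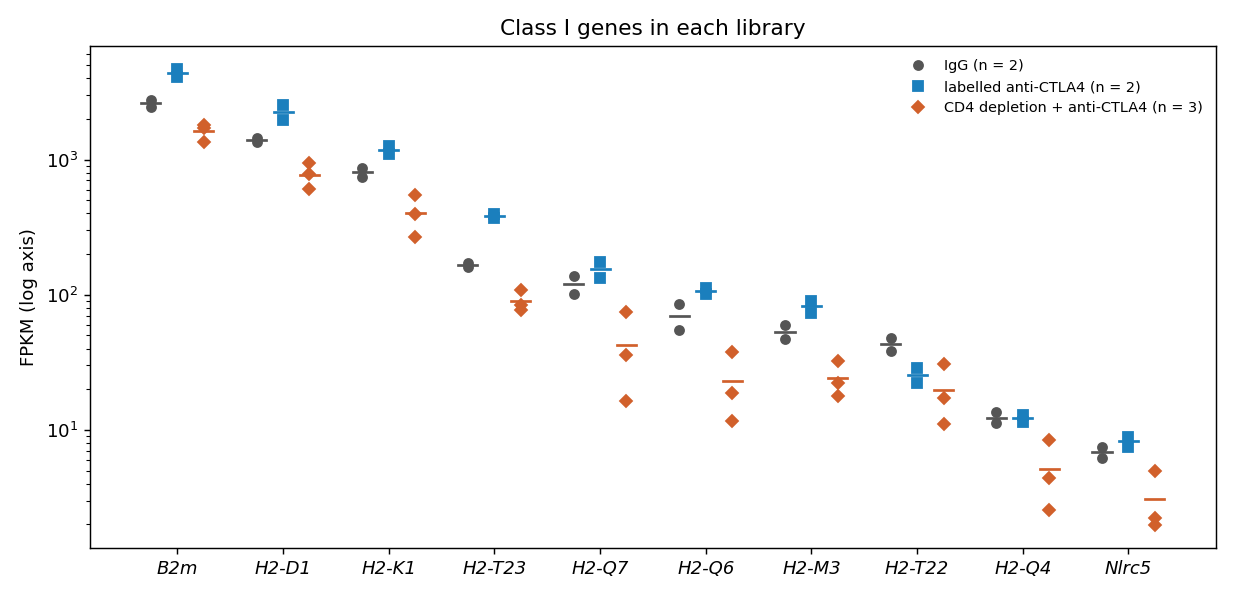
Level of each class I gene in the 7 libraries, in FPKM on a log axis, ordered by level. Points are libraries, horizontal lines are group means, and the groups are IgG (n = 2), labelled anti-CTLA4 (n = 2) and CD4 depletion + anti-CTLA4 (n = 3). B2m spans 1355 to 4693 FPKM and Nlrc5 1.99 to 8.94, and every CD4 depletion library lies below both IgG libraries for each gene.

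Ordered by group mean, 8 of the 10 genes were highest in the libraries labelled anti-CTLA4, then IgG, then CD4 depletion. H2-T22 and H2-Q4 were highest in IgG. Neighbouring groups overlapped for H2-Q4 and H2-Q7 (IgG and labelled anti-CTLA4) and for H2-T22 (labelled anti-CTLA4 and CD4 depletion). Among genes within IgG, H2-Q6 overlapped H2-M3 and H2-M3 overlapped H2-T22, while B2m, H2-D1, H2-K1, H2-T23 and H2-Q7 kept separate ranges above them. CD4 depletion replicate 1 was the lowest of all 7 libraries for 10 of 10 genes, and replicate 2 the highest of its group for 10 of 10. These 10 genes share libraries, so such an order counts libraries and not independent observations.

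The table cannot resolve all of these genes. It also lists H2-L, H2-Q8, H2-Q9 and H2-T9, whose coordinates lie inside or nearly inside H2-D1, H2-Q6, H2-Q7 and H2-T22 and whose FPKM ran at 1.03 to 1.07, 0.980 to 0.993, 0.765 to 0.780 and 1.02 to 1.05 times those members in each library. Reads on both strands were counted. Of the 50-base stretches of the longest coding transcript, 39.7% of H2-T22 (33.6% with H2-T10), 20.2% of H2-Q7, 18.8% of H2-Q6 and 13.8% of H2-Q4 also occurred in another class I gene, so the levels of these genes are uncertain. The share was 8.79% for H2-K1, 11.98% for H2-D1, 9.84% for H2-T23 and 0.576% for H2-M3, and 0% for B2m and Nlrc5.

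The comparison of CD4 depletion + anti-CTLA4 with IgG takes no mean from the libraries whose label is in doubt, although they enter the shared estimate of spread, and asked how class I genes stood under the antibody when CD4 T cells were removed. All 10 genes were lower in every CD4 depletion library than in either IgG library, while 16.2% of tested genes were separated in that direction. The log2 differences ran from -0.69 (SE 0.33) for B2m to -1.71 (SE 0.54) for H2-Q7 and -1.70 (SE 0.43) for H2-Q6. Between these were -1.06 (SE 0.32) for H2-K1, -0.88 (SE 0.30) for H2-D1, -0.90 (SE 0.19) for H2-T23, -1.13 (SE 0.25) for H2-M3, -1.20 (SE 0.37) for H2-T22, -1.23 (SE 0.37) for H2-Q4 and -1.02 (SE 0.31) for Nlrc5. The members' median was -1.10, and that of all tested genes -0.04. None of the 10 passed after adjustment, and neither did any other gene (0 of 13028, or 0%, each member's limma adjusted p = 0.71), nor when only these 2 groups entered the fit. At an unadjusted p under 0.05, 9 of the 10 were lower, all but B2m, beside 3.81% of tested genes. After scaling to homeostatic microglia genes the members' median was -1.09. In bulk RNA, a different makeup of the sort and less class I RNA per cell cannot be told apart.

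The next comparison set CD4 depletion + anti-CTLA4 against the libraries labelled anti-CTLA4, and asked what CD4 T cell removal changed under the same antibody. It shares its CD4 depletion libraries with the first. Of the 10 genes, 9 fell, where 6.59% of all tested genes were lower and 22.8% higher. H2-Q6 fell by 2.33 on the log2 scale (SE 0.43, limma adjusted p = 0.0148). H2-T23 fell by 2.09 (SE 0.19, limma adjusted p = 0.00891), a mean of 89.7 ± 16.6 FPKM (SD, n = 3) against 382 ± 22.2 (SD, n = 2), and ranked 11 of all genes by p. H2-Q7 fell by 2.09 (SE 0.54, limma adjusted p = 0.0294) and H2-M3 by 1.75 (SE 0.25, limma adjusted p = 0.012).

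The classical pair and the light chain also passed, though not with quantile normalization. H2-K1 fell by 1.61 on the log2 scale (SE 0.32, limma adjusted p = 0.0165), H2-D1 fell by 1.55 (SE 0.30, limma adjusted p = 0.0155) and B2m fell by 1.45 (SE 0.33, limma adjusted p = 0.021). Nlrc5 fell by 1.25 (SE 0.31, limma adjusted p = 0.0263) and H2-Q4 by 1.22 (SE 0.37, limma adjusted p = 0.0436). H2-T22 did not pass, at -0.45 (SE 0.37, limma adjusted p = 0.367). The same 9 genes were separated without overlap, beside 15.7% of tested genes in that direction, and the members' median was -1.58 against 0.27 over all tested genes. The count of 9 depended on the libraries and on the scaling. It was 0 without labelled anti-CTLA4 replicate 2, where 0 of 13028 genes passed and the members' median was -1.66. It was 2 without CD4 depletion replicate 3 (249 genes lower in all), 5 without labelled anti-CTLA4 replicate 1 (597) and 3 with no filter on low values (616). Quantile normalization gave 6 (1460 genes lower in all). With it H2-K1 at -1.004, H2-D1 at -0.54 and B2m at -0.39 were no longer called (limma adjusted p = 0.0967, 0.226 and 0.465). Scaling to homeostatic microglia genes gave 1, where 102 genes were lower and 6300 higher in all and H2-T22 turned to 0.41. With median-of-ratios scaling it was 9, and the calls over all genes moved from 2969 higher and 858 lower to 1463 higher and 1650 lower.

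The last comparison set the libraries labelled anti-CTLA4 against IgG, and asked what the antibody alone changed. These are the same libraries as in the comparisons above, so its values are not independent of them. H2-T23 rose by 1.20 on the log2 scale (SE 0.21, limma adjusted p = 0.0105), from 166 ± 6.88 (SD, n = 2) to 382 ± 22.2 FPKM (SD, n = 2). It was the only 1 of the 10 to pass, where 9.29% of all tested genes were higher and 28.8% lower, so the share of members called is near the background. B2m stood at a difference of 0.75 (SE 0.36, limma adjusted p = 0.129), H2-D1 at 0.67 (SE 0.32, limma adjusted p = 0.134), H2-Q6 at 0.64 (SE 0.48), H2-M3 at 0.62 (SE 0.28) and H2-K1 at 0.55 (SE 0.35). Smaller still were 0.37 (SE 0.59) for H2-Q7, 0.23 (SE 0.34) for Nlrc5 and -0.01 (SE 0.40) for H2-Q4. H2-T22 was at -0.74 (SE 0.40, limma adjusted p = 0.176).

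Without overlap, 7 members were higher and 1, H2-T22, lower, beside 22.8% and 54.1% of tested genes. The members' median was 0.59 and that of all tested genes -0.31. The H2-T23 call was lost without IgG replicate 1, IgG replicate 2 or labelled anti-CTLA4 replicate 2, each at a similar difference of 1.16 to 1.26. Each of these fits leaves 1 library in a group, and fewer genes were called over all tested genes as well. The loss is therefore not particular to H2-T23. Median-of-ratios scaling moved the calls over all genes from 1210 higher and 3747 lower to 2147 higher and 2045 lower, the median of all genes to -0.01 and the count of higher members to 4, adding H2-D1, H2-M3 and B2m, and turned H2-Q4 to 0.34. Scaling to homeostatic microglia genes brought the median of all genes to -0.98 and left 0 members higher, where 85 genes were higher and 5716 lower in all. It took H2-T23 to 0.30, and turned B2m, H2-K1, H2-D1, H2-Q6, H2-Q7, H2-M3 and Nlrc5 below 0. Quantile normalization turned H2-K1, H2-D1 and B2m below 0 and H2-Q4 above it.

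**Figure D3:**
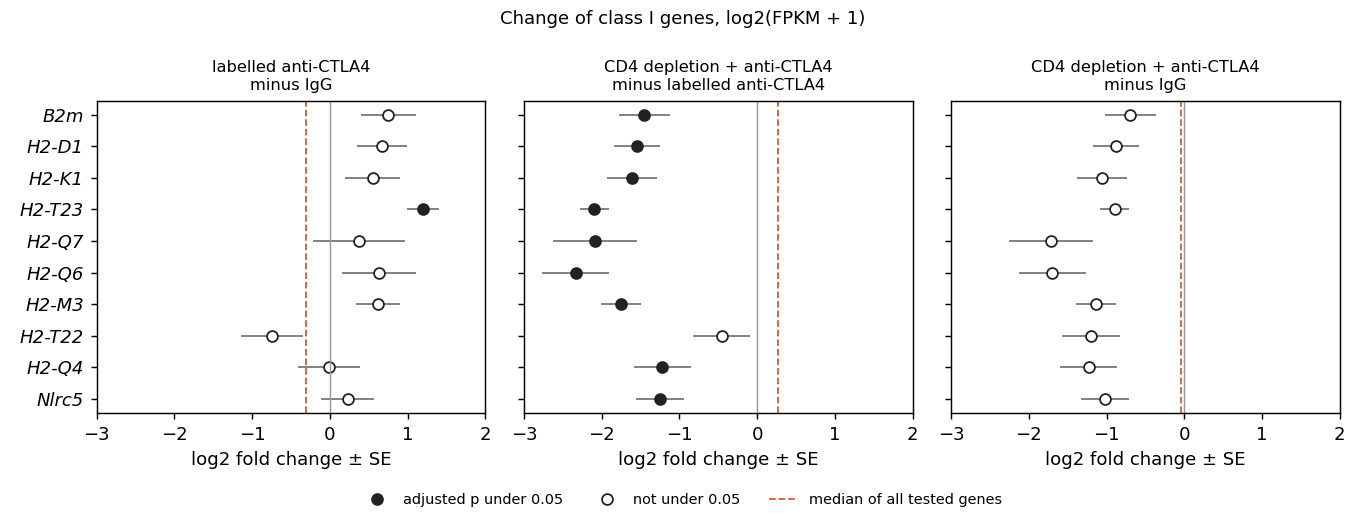
Log2 fold change of the 10 class I genes on the log2(FPKM + 1) scale in the 3 comparisons, which share libraries. Points are limma estimates with their SE, filled where the adjusted p was under 0.05, and the dashed line is the median of all tested genes. In the second panel 9 of 10 points are filled and negative, in the first only that of H2-T23, at 1.20, and in the third none; in the first panel 7 of the positive points, those of all but H2-T23, turn negative after scaling to homeostatic microglia genes, and those of H2-K1, H2-D1 and B2m also with quantile normalization.

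Setting each gene against B2m in the same library asks which genes moved differently from the light chain. It removes the scaling of the library, except in part for low genes such as Nlrc5 and H2-Q4, because 1 FPKM is added before the log. Summed over the 8 heavy chains, the level was 103% of B2m in both IgG libraries, 97.8% and 93.1% in the libraries labelled anti-CTLA4, and 74.6%, 98.6% and 79.9% with CD4 depletion. The sum was 2673 ± 202 FPKM (SD, n = 2), 4201 ± 549 (SD, n = 2) and 1381 ± 381 (SD, n = 3) in these groups. H2-K1 and H2-D1 together made up 80.7% to 86.6% of it in every library. The H2-D1 level was 1.67 to 1.82 times that of H2-K1 with IgG, 1.79 to 1.99 times in the libraries labelled anti-CTLA4 and 1.72 to 2.29 times with CD4 depletion, ranges that overlap.

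H2-T22 made up 1.70% and 1.53% of the summed heavy chains in the IgG libraries, 0.622% and 0.585% in the libraries labelled anti-CTLA4, and 1.102%, 1.74% and 1.26% with CD4 depletion. The libraries labelled anti-CTLA4 stood apart below the rest. Relative to B2m, H2-T22 was lower there than in IgG by -1.50 on the log2 scale (SE 0.30, limma adjusted p = 0.00228), and this held with each of the 4 libraries of these groups left out in turn (-1.43 to -1.57). A share of 69.1% of all tested genes was lower relative to B2m in that comparison, and H2-T22 was the only member past the threshold among them. Of the rest, H2-Q4 was at -0.76 relative to B2m (SE 0.31, limma adjusted p = 0.0531) and H2-K1 and H2-D1 at -0.20 (SE 0.30) and -0.08 (SE 0.32).

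From the libraries labelled anti-CTLA4 to CD4 depletion, H2-T22 rose relative to B2m by 0.99 (SE 0.28, limma adjusted p = 0.00729), as did 92.1% of tested genes. H2-T23 and H2-Q6 fell further than B2m itself, with log2 differences relative to B2m of -0.65 (SE 0.20, limma adjusted p = 0.012) and -0.88 (SE 0.34, limma adjusted p = 0.0337). They were among only 27 genes, or 0.207%, that were lower relative to B2m. H2-K1 was at -0.17 (SE 0.28), H2-D1 at -0.10 (SE 0.29) and Nlrc5 at 0.20 (SE 0.29) relative to B2m, none past the threshold. The H2-Q6 call relative to B2m was lost without labelled anti-CTLA4 replicate 1 (limma adjusted p = 0.0677) or 2 (0.179) and without CD4 depletion replicate 1 (0.0643) or 3 (0.0867), at -0.63 to -1.06. That of H2-T23 was lost without CD4 depletion replicate 3 (-0.56, limma adjusted p = 0.0592).

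Against IgG, CD4 depletion left H2-Q6 lower relative to B2m by -1.001 (SE 0.34, limma adjusted p = 0.0406), 1 of 18 genes (0.138%) lower in that way. H2-Q7 was at -1.02 (SE 0.42, limma adjusted p = 0.0625). H2-Q6 made up 3.01% and 2.18% of the summed heavy chains with IgG and 1.15%, 2.15% and 1.39% with CD4 depletion. This H2-Q6 call was lost without IgG replicate 1, IgG replicate 2, CD4 depletion replicate 1 or CD4 depletion replicate 3 (-0.75 to -1.23, limma adjusted p = 0.0643 to 0.226). Without CD4 depletion replicate 2, H2-Q6 passed, as did H2-Q7, H2-Q4 and H2-T22 at -1.46, -0.82 and -0.79 relative to B2m. The share of all genes past the threshold in that fit is not given here, so these calls have no background beside them.

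**Figure D4:**
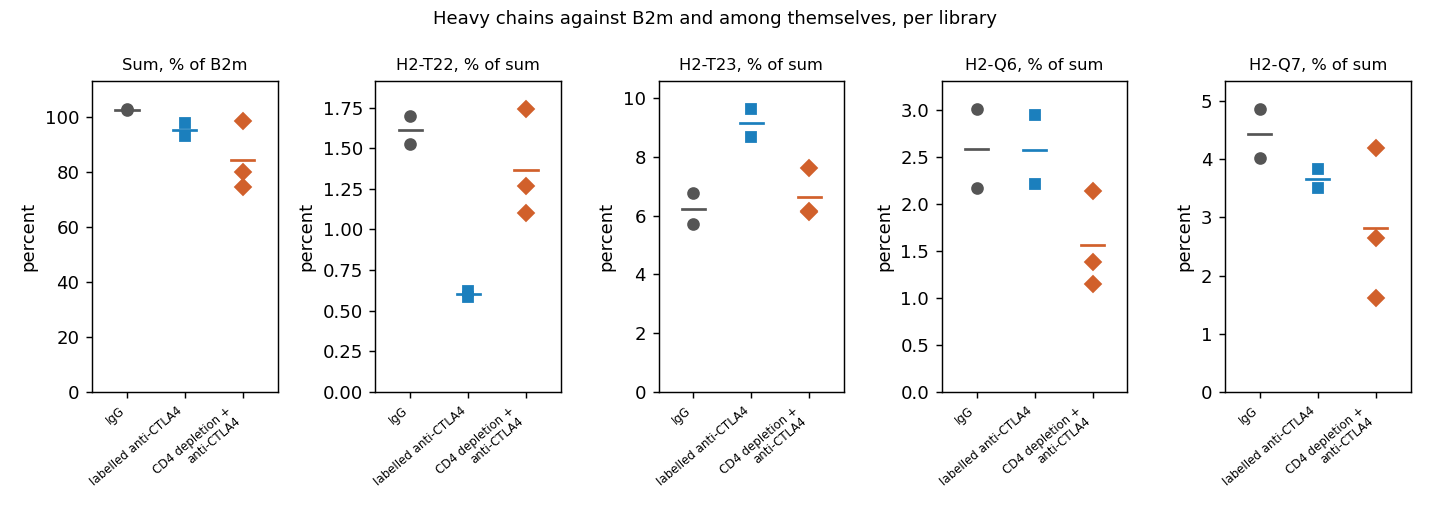
Heavy chains against B2m and among themselves in each library. The left panel gives the summed FPKM of the 8 heavy chains as a percent of B2m, the others the share of H2-T22, H2-T23, H2-Q6 and H2-Q7 in that sum, with points for libraries and lines for group means. The H2-T22 share is 0.585% to 0.622% in the libraries labelled anti-CTLA4 and 1.102% to 1.74% in the other 5.

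Other genes of the class I pathway were counted from lists. The lists were chosen with earlier results of these data known, so a share above that of all tested genes is a description and not a test. Of 13 tested genes for other class I and class I-like chains, 4 rose and 0 fell in the libraries labelled anti-CTLA4 against IgG, 8 fell with CD4 depletion against those libraries, and 0 passed against IgG. The share called was 30.8% higher and 61.5% lower in the first 2 comparisons, beside 9.29% and 6.59% of all tested genes. Since 4 of the 13 overlap a member, the counts over the 9 others were 4 higher (44.4%), 5 lower (55.6%) and 0. H2-K2, a non-coding class I entry, was at 1.34 and 3.10 FPKM with IgG, 11.01 and 11.6 in the libraries labelled anti-CTLA4, and 4.91, 3.40 and 5.49 with CD4 depletion. It rose by 1.99 (SE 0.30, limma adjusted p = 0.00936) and fell by 1.15 (SE 0.28, limma adjusted p = 0.0249), but unlike each member it stood higher with CD4 depletion than with IgG, at 0.84 (SE 0.28, limma adjusted p = 0.71). Fcgrt, the heavy chain of the neonatal Fc receptor, and Hfe, the haemochromatosis protein, both pair with B2m and rose by 0.99 (SE 0.25) and 0.67 (SE 0.20) in the libraries labelled anti-CTLA4. H2-T24 rose by 1.07 (SE 0.21) and fell by 1.22 (SE 0.19) in those comparisons.

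Peptides for class I are cut by the proteasome, pumped into the endoplasmic reticulum by the Tap1 and Tap2 transporter and loaded with help from tapasin. Of 13 genes for these steps, 2 rose in the libraries labelled anti-CTLA4 against IgG, 7 fell with CD4 depletion against those libraries, and 0 passed against IgG, with medians of 0.12, -0.77 and -0.57 beside -0.31, 0.27 and -0.04 over all genes. The share higher in the first comparison, 15.4%, stood beside 9.29% of all tested genes, and the share lower in the second, 53.8%, beside 6.59%. Tapbp, which encodes tapasin, rose by 1.01 (SE 0.18, limma adjusted p = 0.0105) and fell by 1.22 (SE 0.16, limma adjusted p = 0.0115). Its levels with CD4 depletion, 76.4, 97.0 and 77.8 FPKM, reached those with IgG, 96.9 and 95.4. Tap2 fell by 1.02 (SE 0.22, limma adjusted p = 0.0187). The immunoproteasome subunits Psmb8 and Psmb9, which cut peptides suited to class I, were at -1.19 (SE 0.30) and -1.41 (SE 0.40) with CD4 depletion against IgG, with no call after adjustment (limma adjusted p = 0.71).

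The partners of Nlrc5 at the promoter were counted next. Of 8 RFX, NF-Y and CRE-binding genes, 2 fell in the libraries labelled anti-CTLA4 against IgG, and 2 rose with CD4 depletion against those libraries. These shares, 25.0% each, were near the 28.8% lower and 22.8% higher of all tested genes. Both times the genes were Nfyb, a subunit of NF-Y, at -1.06 (SE 0.20) and 0.83 (SE 0.18), and Rfxap, a subunit of RFX, at -0.59 (SE 0.16) and 0.73 (SE 0.15). None of the 8 passed against IgG.

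The inputs to class I from interferon and NF-kB signalling formed the next list. Of 17 genes, 8 rose in the libraries labelled anti-CTLA4 against IgG and 9 fell with CD4 depletion against them, beside 9.29% and 6.59% of all tested genes, and 0 passed against IgG. Stat2 and Irf8, factors of the interferon response, rose by 1.22 (SE 0.18) and 0.93 (SE 0.20) and fell by 1.40 (SE 0.16) and 1.19 (SE 0.18). Ifnar2, a chain of the type I interferon receptor, rose by 1.14 (SE 0.16) and fell by 0.90 (SE 0.15).

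The receptors that read class I were scarcely measured in these cells. Only 3 of 12 listed genes reached the filter, and none passed in any comparison. Pirb and Lilrb4a, inhibitory receptors of myeloid cells of which Pirb binds class I, were at 30.7 and 97.8 FPKM in CD4 depletion replicate 1 and at most 9.18 and 41.8 FPKM elsewhere.

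Genes whose levels were most like those of Nlrc5 or B2m over the 7 libraries were taken by Pearson r on log2(FPKM + 1). For Nlrc5 they were Tap2 (r = 0.983), Vps39 (0.978) and Irf1 (0.975), where Vps39 acts in lysosomal tethering and Irf1 is an interferon-induced factor. For B2m they were H2-L (0.990), which shares the H2-D1 reads, Tapbpl (0.988), a tapasin-related editor of class I peptides, Il18bp (0.986), the secreted inhibitor of interleukin-18, and Tmem140 (0.982). Among the members, r with B2m was 0.991 for H2-D1, 0.987 for H2-T23, 0.964 for H2-K1, 0.958 for H2-M3, 0.931 for H2-Q6, 0.887 for H2-Q7, 0.857 for Nlrc5, 0.825 for H2-Q4 and 0.471 for H2-T22. With Nlrc5, H2-Q6 (0.955), H2-M3 (0.944) and H2-Q4 (0.944) stood highest and H2-T22 (0.730) lowest. All points share the same 7 libraries and their differences in makeup, so these values are descriptions.

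**Figure D5:**
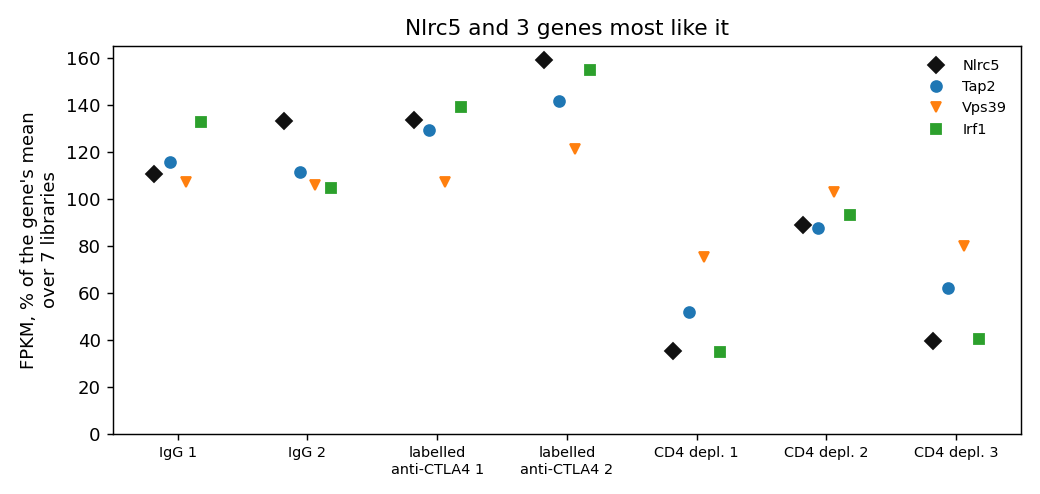
Nlrc5 and 3 genes most like it, in each of the 7 libraries, as a percent of the gene's own mean FPKM. Each symbol is a gene and each position on the horizontal axis a library. All 4 genes are lowest in CD4 depletion replicate 1, and Vps39 varies least.

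Markers of some other cell types differed between the groups, while others overlapped or stood out in 1 library. The summed level of 12 oligodendrocyte precursor-like and tumour cell markers was 694 and 953 FPKM with IgG, 93.7 and 37.5 in the libraries labelled anti-CTLA4, and 170 to 585 with CD4 depletion. That of 14 homeostatic microglia markers, all above 1 FPKM in every library, was 4691 to 5923 with IgG, 8551 and 12867 in the libraries labelled anti-CTLA4, and 3992 to 6615 with CD4 depletion. CD4 depletion replicate 1, the lowest library for each class I gene, had 3802 FPKM over 14 monocyte and macrophage markers, against 347 to 1200 in the other 6, and 508 over 8 neutrophil markers, against 35.5 to 178, with Ly6g and Mpo at 0 in a library. Without that library, 9 members still fell against the libraries labelled anti-CTLA4 (median -1.37), where 1158 of 13028 genes were lower in all, and the members' median against IgG was -0.85, with 0 calls. T cell markers summed to 2.91 to 5.02 FPKM over 9 rows, 5 of them under 1 FPKM in every library, and NK markers to 1.04 to 7.43 over 8, with Ncr1, Prf1 and Klre1 at 0 in a library. Endothelial markers summed to 22.1 and 23.2 with IgG and 57.9 and 59.2 in the libraries labelled anti-CTLA4, and mural cell and fibroblast markers to 27.3 and 36.6 against 435 and 217. In the same order, red blood cell markers summed to 328 and 47.4 against 980.4 and 939, B cell markers to 7.07 and 8.59 against 21.7 and 22.9, and astrocyte markers to 202 and 272 against 111 and 74.0. With CD4 depletion these 3 sums were 166 to 576, 7.38 to 9.83 and 182 to 305. The part of these differences in makeup in the class I results was not tested.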

How the data were processed

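The data were RNA sequencing levels of sorted microglia in 7 libraries. The deposited values are FPKM that HOMER made, per the file headers, counted over exons on both strands with 1 entry per gene. Per the submitters' processing notes, STAR, HOMER, DESeq2 and build mm10 were used, with versions not given in the sources used here. Libraries were taken by column name. The header's command lists 40 libraries, of which 33 have no column, and those are not analysed here. Low values were whole reads within 0.1 read in 100% of 272 to 304 values per library, which gave the implied depth. Depth limits the precision of H2-Q4 most.

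Values were analysed as log2(FPKM + 1), which understates the change of low genes, with limma 3.58.1 in R 4.3.3 (3 groups in 1 fit, trended moderation, two-sided, Benjamini-Hochberg over 13028 genes, threshold 0.05), and again after subtracting B2m in the same library (13027 genes). The tests were checked on simulated data. An exact permutation test cannot go below p = 0.333 for 2 libraries against 2 or 0.2 for 2 against 3, so none was run. Tables were handled in Python 3.11.15 with pandas 2.3.3 and figures drawn with matplotlib 3.10.9.

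Members, pathway lists and markers were chosen with earlier results of these data known. All members are described. From each pathway list, up to 4 genes with the smallest p in a comparison could be named, and for B2m and Nlrc5 the 4 most correlated genes with a mean of at least 5 FPKM, without predicted genes, clone names and genes overlapping them. One gene that these rules take is not reported here. Alternatives changed the pseudocount (0.1 or 5), the filter (none, or 5 FPKM), the scaling, the fit and the libraries included. The sum of non-overlapping heavy chains and a crossed replicate block were chosen after seeing the data. Promoter and transcript sequences were from RefSeq and GENCODE for GRCm38. Shared stretches are exact 50-base matches.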

Additional observations from a re-analysis of the deposited data

How the results depend on the processing

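CD4 depletion against IgG gave 0 members past the threshold under every alternative that kept at least 2 libraries in each group. In these fits 0 of all tested genes passed too, so the count of 0 is not particular to the members. Each member kept its direction in all 150 alternative values. Against the libraries labelled anti-CTLA4 the direction held in 149 of 150, the exception being H2-T22 at 0.41 after homeostatic scaling. The count of 9 lower members became 8 in the fit of 2 groups (without H2-Q4, limma adjusted p = 0.0665). It was 6 with quantile normalization (without H2-K1, H2-D1 and B2m), 3 without a filter, 1 after homeostatic scaling and 0 with the replicate block. Over all tested genes 858 were lower in the main fit, and 649, 1460, 616, 102 and 0 in these, in the same order. Without CD4 depletion replicate 1, 2 or 3 the count was 9, 8 or 2, beside 1158, 407 and 249 genes lower in all. It also fell without either labelled anti-CTLA4 library, which leaves 1 library in that group. Labelled anti-CTLA4 against IgG had 1 higher member, 4 with median-of-ratios scaling, 2 without a variance trend and 0 after homeostatic scaling. Over all 13028 tested genes 1210, 2147, 1189 and 85 were higher in these fits, in the same order. One lower member (H2-T22) was called after homeostatic scaling, where 5716 genes were lower in all, and in the fit of 2 groups alone, where 3919 were. With a library left out, which leaves 1 library in a group, the higher call was lost in some fits.

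In that comparison, values that changed sign were, with quantile normalization, H2-K1 at -0.15, H2-D1 at -0.19, B2m at -0.43 and H2-Q4 at 0.26. With median-of-ratios scaling H2-Q4 was at 0.34. After homeostatic scaling H2-K1 was at -0.34, H2-D1 at -0.23, H2-Q6 at -0.25, H2-Q7 at -0.52, H2-M3 at -0.27, B2m at -0.15 and Nlrc5 at -0.55. With a library left out, H2-Q4 ran from -0.13 to 0.12. Homeostatic scaling moved the median of all genes to -0.98, 0.95 and -0.03 in the comparisons of labelled anti-CTLA4 with IgG, CD4 depletion with labelled anti-CTLA4 and CD4 depletion with IgG.

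Against B2m, 1 member was past the threshold for labelled anti-CTLA4 against IgG. The count was 3 at a pseudocount of 5 and 2 without a filter or with 2 groups in the fit. The added members were lower relative to B2m, H2-Q4 in each of these fits and Nlrc5 at a pseudocount of 5. For CD4 depletion against labelled anti-CTLA4 the count was 3, with 5 at a pseudocount of 5 and 1 with the replicate block. The members added at a pseudocount of 5 were higher relative to B2m, H2-Q4 at 0.64 and Nlrc5 at 0.72. This count also changed with a library left out. For CD4 depletion against IgG it was 1, with 0 at a pseudocount of 0.1, with 2 groups or with the replicate block, 2 at a pseudocount of 5 or without a filter, and 0 to 4 with a library left out. Both directions are pooled in these counts. With all 7 libraries, 69.1% of tested genes were lower relative to B2m in the first of these comparisons. In the second 92.1% were higher and 0.207% lower, and in the third 0.138% were lower. Shares over all genes under the alternatives are not given here. With a library left out, the first of these comparisons gave H2-Q6 at -0.35 to 0.11, H2-M3 at -0.38 to 0.11 and H2-D1 at -0.16 to 0.00019, and the second H2-Q4 at -0.056 to 0.44 and Nlrc5 at -0.039 to 0.41. Nlrc5 was at -0.062 in the second with a pseudocount of 0.1 and at 0.12 in the third with a pseudocount of 5. The causes of these shifts were not tested.

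Adding all other H2 class I rows raised the heavy chain sum to 167% of B2m (IgG), 155% (labelled anti-CTLA4) and 140.3% (CD4 depletion), since overlapping rows then count the same reads again. Adding only rows that overlap no member, an alternative chosen after seeing the data, gave 103% with IgG. The labels do not say that replicate numbers pair the libraries: deviations of same-numbered libraries correlated at -0.125 for IgG and labelled anti-CTLA4, -0.181 and -0.205 for IgG and CD4 depletion, and 0.078 and 0.123 for labelled anti-CTLA4 and CD4 depletion. With the replicate block, the count of higher members in labelled anti-CTLA4 against IgG was 1, also with the numbers of the libraries labelled anti-CTLA4 exchanged, a fit added after seeing the data, and in CD4 depletion against labelled anti-CTLA4 0 of all tested genes passed.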
